A study of Mus musculus with 35 samples.

Results

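Genes for lysosomal membrane proteins and for the sorting and fusion machinery that supplies the lysosome were followed in whole kidneys of newborn mice that had lost Flcn alone or together with Tfeb or Tfe3. The 50 genes were taken from a list by their symbol and joined by Ensembl identifier to a count table of 31053 genes in 35 libraries. They fall into 25 genes for membrane proteins and channels and 25 genes for sorting adaptors, receptors and fusion proteins, and all 50 were listed for every library. Kidneys were collected from C57BL/6 mice on postnatal day 2, and each library is labelled as a biological replicate. Flcn KO mice carried Flcn flox/flox and Ksp-cre+ (5 libraries, with 5 controls of the same cross). Flcn/Tfeb DKO mice carried Flcn flox/flox, Tfeb flox/flox and Ksp-cre+ (4 libraries, 3 controls), and Flcn/Tfe3 DKO mice carried Flcn flox/flox, Ksp-cre+ and a germline Tfe3-/- (10 libraries, 8 controls). The labels name the controls by their cross only, and the study describes controls as Flcn flox/flox without stating whether those of the third cross carry a Tfe3 null allele. Ksp-cre is driven by the promoter of Cdh16 and acts in the collecting duct, the distal tubule and the thick ascending limb. The recombined cells thus give only a fraction of the RNA of a whole kidney. By contrast, the Tfe3-/- genotype that the study describes for the third mutant is that of every cell. Set A here means the libraries of the first pair of crosses. Those of the Flcn/Tfe3 cross came in 2 count tables, called set B (3 controls, 6 mutants) and set C (5 controls, 4 mutants).

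The lysosome is bounded by a membrane rich in heavily glycosylated proteins such as LAMP1 and LAMP2, which shield it from its own enzymes, and it carries channels and transporters that release calcium, cholesterol, cystine and other products of digestion. Newly made acid hydrolases are given a mannose 6-phosphate tag in the Golgi, are bound by the mannose 6-phosphate receptors or by sortilin, and are packed into vesicles by the adaptor AP-1 and the GGA proteins. AP-3 carries membrane proteins to late endosomes, and Rab7, the HOPS tethering complex and SNARE proteins then dock and fuse the vesicles. FLCN takes part in mTORC1-dependent phosphorylation of the transcription factors TFEB and TFE3, which keeps them in the cytoplasm. In the nucleus they bind the palindromic CLEAR element and related E-boxes near many lysosomal genes.

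Each library held 1652649 to 4239356 counts on genes (median 2992169). An observed count of 0 still readily allows a true level of up to 3 counts. That floor amounts to 0.708 to 1.82 CPM, the unit that scales the counts of a gene to a common library size. Levels below use library sizes scaled within each cross by the TMM method, and they come from 3′ end reads, so they are not compared between genes. The targeted genes did not check the labels: the Flcn level was 15.3 ± 3.32 CPM (SD, n = 5) in the libraries labelled Flcn KO against 14.1 ± 2.28 (n = 5) in their controls, Tfeb was 7.1 ± 0.623 (n = 4) against 11.5 ± 6.45 (n = 3) in the Flcn/Tfeb cross, and Tfe3 was 19 ± 3.76 (n = 10) against 19.6 ± 3.21 (n = 8) in the Flcn/Tfe3 cross. Reads at the 3′ end can lie outside a deleted part, and the genotype names below are those of the labels. In set A 3 libraries stood apart from the rest of their groups. Mitochondrially encoded genes took 4.88% and 4.93% of the counts in control replicates 4 and 5 of the Flcn cross against 9.98 to 11.1% in the other 3 controls and 7.33 to 11.1% in the Flcn KO libraries, and 4.47% in control replicate 3 of the Flcn/Tfeb cross against 9.16% and 10.7% in its other controls and 10.4 to 11.9% in the DKO libraries. The share was 1.79 to 3.56% in set B, 3.01 to 7.8% in the controls of set C and 2.72 to 4.27% in its DKO libraries. Among the Flcn KO libraries, replicates 2 and 5 had the lowest mitochondrial shares, 7.33% and 7.84%. Across genes, their deviations from the group mean correlated with those of control replicates 4 and 5 (r = 0.134 to 0.34). With those of control replicates 1 to 3 the correlation was negative (r = -0.304 to -0.0961). Both mutants are kept in the fits that leave control replicates 4 and 5 out. Class medians and many fold changes within a cross that rest on the 3 control libraries are given with and without them. The fold changes of the tests between crosses are given with them only.

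RefSeq promoter windows of GRCm38.p6, from 250 bases before to 50 bases after the gene start, were found for 41 of the 50 genes. Both strands were searched for the core of the CLEAR element, written TCACGTG. This was present in a window of 9 of the 41 genes (22%) and in 1237 of all 32851 windows of the same length (3.77%). The share of the list is thus counted over genes, and that of the background over single windows. The 9 genes were Lamp1, Mcoln1, Cln3, Slc36a1 and Clcn7 among 22 membrane genes with a window and Igf2r, Gnptg, Gga2 and Vps33a among 19 sorting genes. The full CLEAR palindrome, which contains this core, was present in Cln3, Igf2r and Vps33a (7.32% of the genes against 0.326% of all windows). The shorter E-box CACGTG, which the core contains, was present for 10 genes (24.4% against 7.15%). A related E-box, TCATGTG, was present for 4 (9.76% against 3.77%). Below are the windows of the 4 genes whose Flcn KO libraries all lay above all controls (Mcoln3, Ap1m2, Gga2 and Vamp8), with that of Lamp1, the classical lysosomal marker, for comparison. Each is written 5′ to 3′ on the strand of the gene, and capitals mark matches to TCACGTG read on either strand.
Mcoln3 (chr3:146121541-146121840, plus strand): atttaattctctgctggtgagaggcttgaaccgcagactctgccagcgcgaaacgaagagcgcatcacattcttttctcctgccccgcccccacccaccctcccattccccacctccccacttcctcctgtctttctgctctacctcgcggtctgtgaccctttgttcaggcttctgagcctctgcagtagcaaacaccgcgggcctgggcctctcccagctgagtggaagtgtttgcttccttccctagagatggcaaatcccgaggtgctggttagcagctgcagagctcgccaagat
Ap1m2 (chr9:21312284-21312583, minus strand): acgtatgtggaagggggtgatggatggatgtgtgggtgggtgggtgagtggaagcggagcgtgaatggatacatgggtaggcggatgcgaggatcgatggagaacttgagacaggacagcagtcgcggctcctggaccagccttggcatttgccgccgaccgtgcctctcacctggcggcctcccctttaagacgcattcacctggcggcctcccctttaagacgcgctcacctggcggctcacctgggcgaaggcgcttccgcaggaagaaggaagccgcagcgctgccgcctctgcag
Gga2 (chr7:122021149-122021448, minus strand): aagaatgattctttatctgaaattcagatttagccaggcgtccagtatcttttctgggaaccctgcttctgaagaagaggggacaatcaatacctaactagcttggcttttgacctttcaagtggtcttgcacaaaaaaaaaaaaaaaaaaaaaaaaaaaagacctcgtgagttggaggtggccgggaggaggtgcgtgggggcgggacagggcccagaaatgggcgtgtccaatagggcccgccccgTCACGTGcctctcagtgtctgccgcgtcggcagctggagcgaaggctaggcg
Vamp8 (chr6:72390618-72390917, minus strand): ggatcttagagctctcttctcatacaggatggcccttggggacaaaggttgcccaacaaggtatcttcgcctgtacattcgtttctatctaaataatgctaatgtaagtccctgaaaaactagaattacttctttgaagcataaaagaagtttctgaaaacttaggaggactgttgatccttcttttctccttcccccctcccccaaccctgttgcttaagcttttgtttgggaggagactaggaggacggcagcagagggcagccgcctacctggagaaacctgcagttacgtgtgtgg
Lamp1 (chr8:13158911-13159210, plus strand): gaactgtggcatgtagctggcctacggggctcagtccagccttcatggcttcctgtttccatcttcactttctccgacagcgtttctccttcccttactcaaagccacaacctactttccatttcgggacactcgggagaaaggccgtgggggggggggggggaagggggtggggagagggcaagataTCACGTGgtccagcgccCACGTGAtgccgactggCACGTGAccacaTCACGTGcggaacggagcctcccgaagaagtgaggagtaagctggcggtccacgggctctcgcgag
The Lamp1 window held 4 matches, beginning 62, 45, 28 and 16 bases before the start. The Gga2 window held 1 match, which spans the start itself. No match was present in these windows of Mcoln3, Ap1m2 and Vamp8, which says only that these letters are not in this stretch. The Mcoln3 window lies inside the gene position given below (chr3:146117450-146141806), so the RefSeq start used is not the first base of that position.

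The first comparison asks what loss of Flcn does to these genes. Of the 50 genes, 48 had enough counts to be tested (Mcoln2 and Tpcn2 did not). By edgeR's quasi-likelihood F test with Benjamini-Hochberg adjustment over 11932 genes, 0 of the 48 were called at an adjusted p under 0.05, where 0.453% of all genes were called higher and 0.067% lower (0.52% in all). DESeq2 called 4 of them, Gga2, Ap1m2, Mcoln3 and Vamp8, all higher, among 113 genes that it called in all. At an unadjusted p under 0.05, 9 genes were higher in Flcn KO kidneys (18.8% of those tested, against 5.25% of all genes) and 0 were lower (3.81% of all genes). Without control replicate 4, or without Flcn KO replicate 4, 1 membrane gene and 3 sorting genes were higher. Without control replicates 4 and 5 together, 1 membrane gene and 5 sorting genes were. The log2 fold change was above 0 for 35 of 48 genes, against 48.5% of all genes. Among the membrane genes 20 of 23 lay above 0, with a median log2 fold change of 0.22, and among the sorting genes 15 of 25, with a median of 0.023, beside a median of -0.0074 over all genes. The difference between the classes did not hold without control replicates 4 and 5, the libraries with the low mitochondrial share. The median was then 0.00699 for the membrane genes, of which 14 of 24 tested lay above 0, and 0.101 for the sorting genes, of which 19 of 25 did. In a whole kidney fewer cells of a type and less RNA per cell cannot be told apart.

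**Figure D1:**
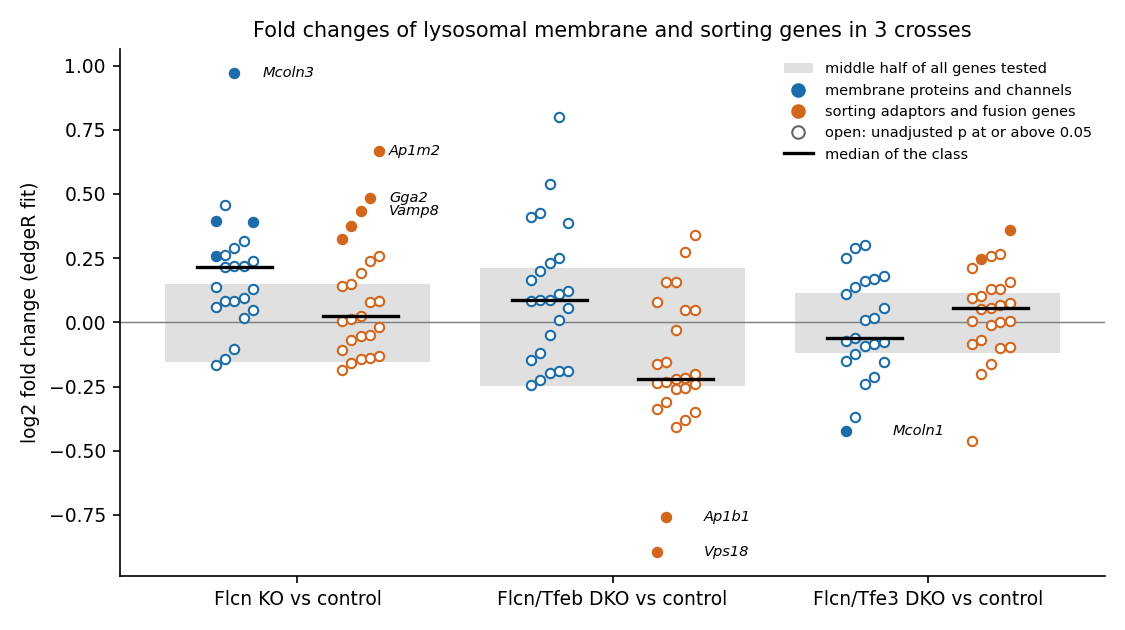
Log2 fold change of each tested gene against the controls of its cross (vertical axis) for membrane proteins and channels (blue) and sorting adaptors and fusion genes (orange) in the 3 crosses. Filled points have an unadjusted p under 0.05, black bars are class medians and grey boxes run from the lower to the upper quartile of all genes; the membrane median is 0.22 in the Flcn cross and the sorting median -0.22 in the Flcn/Tfeb cross.

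In all, 4 genes had every Flcn KO library above every control, 1 of the membrane class and 3 of the sorting class, where 1.67% of all genes tested had this and 0.712% the opposite. Mcoln3 encodes TRPML3, a cation channel of endosomes and lysosomes (chr3:146117450-146141806, plus strand of mm10). Its levels were 7.72, 5.55, 6.46, 9.48 and 6.22 CPM in the controls and 13.2, 13, 12.6, 16.6 and 15.7 CPM in the Flcn KO kidneys. Every mutant thus lay above every control. The fitted difference was 1.96-fold (95% interval 1.42 to 2.7, log2 fold change 0.97, SE 0.22, adjusted p = 0.056 in edgeR), the widest of the 48 genes.

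Ap1m2 encodes the mu-2 subunit of AP-1, which is found in polarized epithelia and sorts proteins to the basolateral membrane (chr9:21294275-21312337, minus strand). It stood at 25.1, 33.3, 30.2, 30.4 and 32.6 CPM in the controls and at 44, 36.8, 54.7, 62.4 and 45.9 CPM in the Flcn KO kidneys. The fold change was 1.59 (95% interval 1.27 to 1.98, adjusted p = 0.056 in edgeR). Its ubiquitous counterpart Ap1m1 overlapped between the groups. It had 40.5, 28.2, 55.5, 62.9 and 50.9 CPM in the controls and 40.1, 50.7, 46.1, 56.7 and 50.9 CPM in the mutants (log2 fold change 0.023, SE 0.17).

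Gga2 encodes a monomeric clathrin adaptor that binds the tails of the mannose 6-phosphate receptors (chr7:121986722-122021222, minus strand). Its levels were 122, 107, 103, 108 and 124 CPM in the controls and 150, 148, 164, 182 and 146 CPM in the Flcn KO kidneys. The groups did not overlap, and the mutants were 1.4-fold higher (95% interval 1.2 to 1.63, adjusted p = 0.051 in edgeR), whereas Gga1 and Gga3 differed by 0.078 and 0.083 on the log2 scale with an SE of 0.18 each. Gga2 shares exon sequence with Gm44987 on the other strand, as 16 of the listed genes do with some gene. Vamp8, a SNARE of late endosomes and of regulated secretion (chr6:72385223-72390703, minus strand), stood at 114, 100, 112, 98 and 117 CPM in the controls and at 125, 164, 134, 159 and 149 CPM in the mutants. It was 1.35-fold higher (95% interval 1.15 to 1.59, adjusted p = 0.11 in edgeR).

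The 4 differences were of like size without the libraries with a low mitochondrial share. Without control replicates 4 and 5 the log2 fold changes were 1.1 for Mcoln3, 0.706 for Ap1m2, 0.511 for Gga2 and 0.427 for Vamp8, with edgeR adjusted p of 0.096, 0.1, 0.055 and 0.17. With the mitochondrial share as a covariate all 4 were called (adjusted p 0.025, 0.025, 0.015 and 0.031 in the same order), and DESeq2 gave 0.022, 0.017, 0.0042 and 0.032. Over all genes these fits called 147 and 113, against 62 in the main fit.

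**Figure D2:**
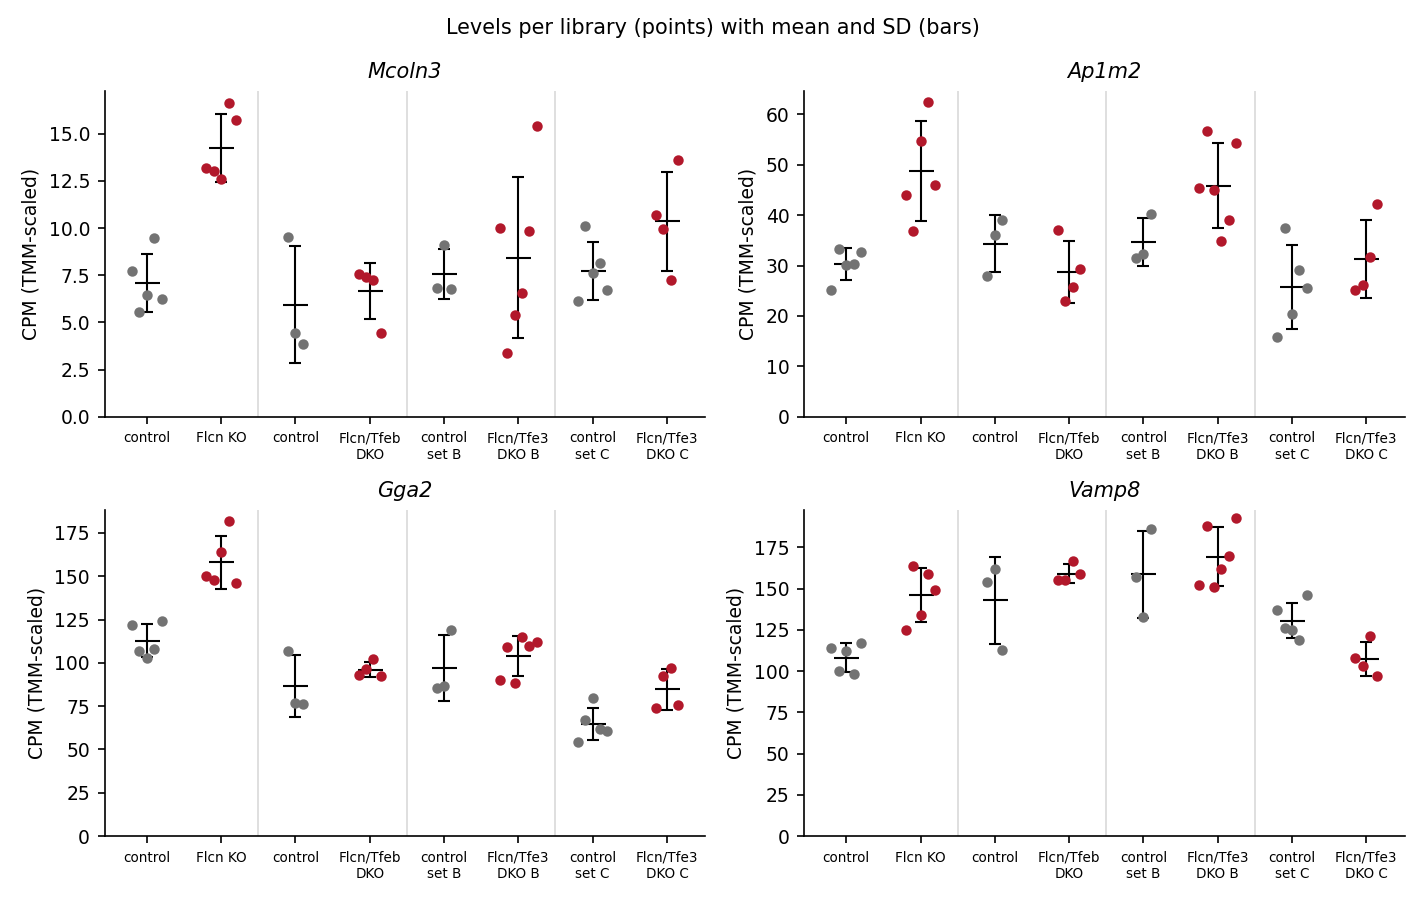
Levels in CPM (vertical axes, from 0) of Mcoln3, Ap1m2, Gga2 and Vamp8 in each of the 35 libraries (points; grey controls, red mutants) with the mean and SD of each group (bars), by cross and set. In the Flcn cross the 5 mutant points lie above the 5 control points in every panel, for Mcoln3 between 12.6 and 16.6 against 5.55 and 9.48; in the other crosses the groups overlap.

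Among the structural proteins of the lysosomal membrane, all 5 genes lay above 0 in the Flcn cross, by 0.13 to 0.39 on the log2 scale (median 0.24), and none was called. Lamp1 (chr8:13159161-13175338, plus strand) had 947, 842, 889, 684 and 744 CPM in the controls and 1130, 978, 926, 894 and 908 CPM in the Flcn KO kidneys. The 2 lowest controls were replicates 4 and 5, and control replicate 1 was the only control that reached into the mutant range (log2 fold change 0.24, SE 0.13, and 0.118 without replicates 4 and 5). Lamp2, which also serves chaperone-mediated autophagy, had 348, 363, 382, 288 and 256 CPM against 385, 363, 313, 357 and 373 CPM, a log2 fold change of 0.13 that turned to -0.0235 without these controls. Cd68, a macrophage LAMP relative, had 7.72, 6.01, 4.85, 5.99 and 6.51 CPM in the controls and 7.83, 7.53, 5.21, 10.2 and 8.58 CPM in the mutants, which overlap (0.32, SE 0.25). The 14 macrophage markers summed to 210 to 285 CPM in these controls and 232 to 255 CPM in the mutants, with no marker at 0. Scarb2, the receptor that carries glucocerebrosidase to the lysosome, differed by 0.22 (SE 0.12).

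Channels were less uniform. Mcoln1, which encodes TRPML1, the main calcium release channel of the lysosome, had 11.6, 29.1, 16.2, 7.98 and 14.8 CPM in the controls and 23, 18.8, 25.3, 21.7 and 18.3 CPM in the Flcn KO kidneys. The highest value was a control, and the log2 fold change of 0.46 (SE 0.26) came to 0.159 without control replicates 4 and 5. The chloride-proton exchanger Clcn7 and its partner Ostm1 differed by 0.14 and -0.10, the 2-pore channel Tpcn1 by 0.016 and the potassium and proton channel Tmem175 by 0.094, each within 1 SE of 0. Npc1, the membrane protein that exports cholesterol, had 23.6, 25.4, 37.2, 28.9 and 16.3 CPM against 26.9, 18.8, 19.3, 31.9 and 21.3 CPM, and with -0.17 (SE 0.21) it had the lowest fold change of the membrane class. Its soluble partner Npc2 differed by 0.26 (SE 0.13). The pair thus lay on opposite sides of 0, and neither passed an unadjusted p of 0.05.

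Transporters lay above 0 in 5 of 6 cases (median 0.22). The cystine exporter Ctns had 17.8, 27.3, 26.9, 23.2 and 18.9 CPM in the controls and 27.9, 40, 23.4, 31.9 and 26 CPM in the mutants (0.40, SE 0.18, unadjusted p = 0.041). Cln3, Slc38a9, Mfsd8 and the sialic acid transporter Slc17a5 differed by 0.22, 0.22, 0.29 and 0.06, and the amino acid transporter Slc36a1 by -0.14. The small membrane proteins Laptm4a, Laptm5 and Tmem192 differed by 0.083, 0.085 and 0.047. Laptm5, a gene of hematopoietic cells, had 23.6, 16.6, 11.3, 17 and 13.3 CPM against 15.2, 14.2, 23.1, 14.7 and 18.9 CPM, which overlap throughout. Laptm4b had 195, 165, 190, 154 and 185 CPM against 209, 191, 213, 257 and 193 CPM (0.26, SE 0.12, unadjusted p = 0.04), where 2 mutants lay below the highest control. Ctns, Laptm4b and the other genes named for an unadjusted p alone were chosen after their values were seen.

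On the sorting side, the receptors and the enzymes that make the mannose 6-phosphate tag lay above 0 in 4 of 5 cases. Sortilin (Sort1) had 37.6, 42.1, 42.6, 42.4 and 54.5 CPM in the controls and 48.4, 52.1, 55.1, 70.1 and 52.1 CPM in the mutants, where only control replicate 5 reached into the mutant range (0.32, SE 0.14, unadjusted p = 0.027, adjusted p = 0.47 in edgeR). Gnptab and Gnptg, subunits of the phosphotransferase, differed by 0.24 and 0.26, and the small receptor M6pr by 0.0044. Igf2r, the large mannose 6-phosphate receptor, had 57.9, 65.2, 87.8, 82.8 and 74.9 CPM against 69, 64.9, 68.1, 58 and 64.5 CPM, and with -0.18 (SE 0.12) it had the lowest fold change of all 48 genes. The adaptor subunits other than Ap1m2 did not share its difference. Ap1b1, Ap1g1 and Ap1s1 differed by -0.16, -0.052 and -0.018, and the AP-3 subunits Ap3b1, Ap3d1 and Ap3m1 by -0.067, -0.047 and -0.11. Without control replicates 4 and 5 Ap1b1 stood at 0.0956.

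All 3 SNARE genes lay above 0. Beside Vamp8, Stx7 differed by 0.19 (SE 0.11) and Vamp7, which takes part in lysosome exocytosis, by 0.37 (SE 0.18, unadjusted p = 0.047). The Vamp7 values were 62.2, 48.1, 47.4, 33.4 and 30.2 CPM in the controls and 60.2, 60.8, 48.7, 66.3 and 47.9 CPM in the mutants, and the fold change came to 0.101 on the log2 scale without the last 2 controls. Of the HOPS subunits, Vps11, Vps33a and Vps39 differed by -0.13, -0.14 and -0.14, Vps41 by 0.014 and Vps18 by 0.15. Rab7, the small GTPase of the late endosome, had 139, 141, 146, 148 and 180 CPM against 148, 168, 179, 164 and 175 CPM (0.14, SE 0.11). No HOPS gene differed by more than about 1 SE, and these SE ran from 0.14 to 0.26.

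The classes were also summarised library by library, as the median deviation of their genes from the mean of the controls on the log2 scale. For the membrane genes this was 0.138, 0.0486, 0.103, -0.0394 and -0.215 in the 5 controls and 0.305, 0.147, 0.0995, 0.225 and 0.111 in the Flcn KO kidneys. Control replicates 4 and 5 were the lowest, and control replicates 1 and 3 reached into the mutant range. For the sorting genes the controls stood at -0.174, -0.106, 0.014, 0.0948 and 0.111 and the mutants at 0.0987, 0.134, 0.00992, 0.046 and 0.163. Here replicates 4 and 5 were the highest controls, so that the same 2 libraries moved the classes in opposite directions. With the mitochondrial share as a covariate the medians of the fitted log2 fold changes were 0.141 for the membrane and 0.0883 for the sorting class.

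**Figure D3:**
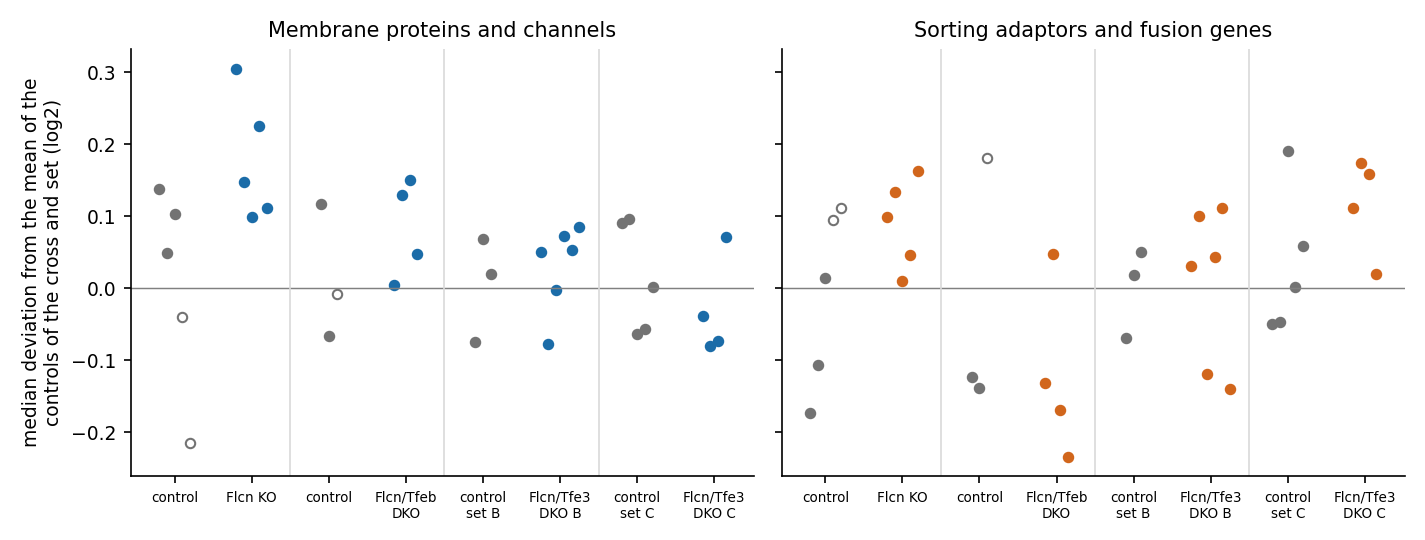
Median deviation of the membrane class (left) and the sorting class (right) from the mean of the controls of the cross and set (vertical axis, log2) in each library (points; grey controls, coloured mutants). Open grey points are the 3 set A controls with a low mitochondrial share: control replicate 5 of the Flcn cross is the lowest membrane value at -0.215 and among the higher sorting values at 0.111.

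Cd63 and Vamp7, chosen after their values were seen, stood low in the 3 libraries with a low mitochondrial share. Cd63, a tetraspanin of late endosomes, had 2670, 2620 and 2720 CPM in control replicates 1 to 3 of the Flcn cross but 1590 and 1610 CPM in replicates 4 and 5, against 3360, 2820, 2570, 3150 and 2780 CPM in the Flcn KO kidneys (log2 fold change 0.39, and 0.139 without these 2 controls). In the Flcn/Tfeb cross the controls had 3410, 3070 and 1220 CPM and the DKO kidneys 2850, 3160, 3300 and 2900 CPM. The low control was again the library with the low mitochondrial share. Vamp7 showed the same order there, with 79.6, 77.7 and 17.4 CPM in the controls and 54.4, 60.1, 74.9 and 86.3 CPM in the mutants. The part of the mitochondrial share in these values was not tested beyond the fits that take it as a covariate or leave these libraries out.

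**Figure D4:**
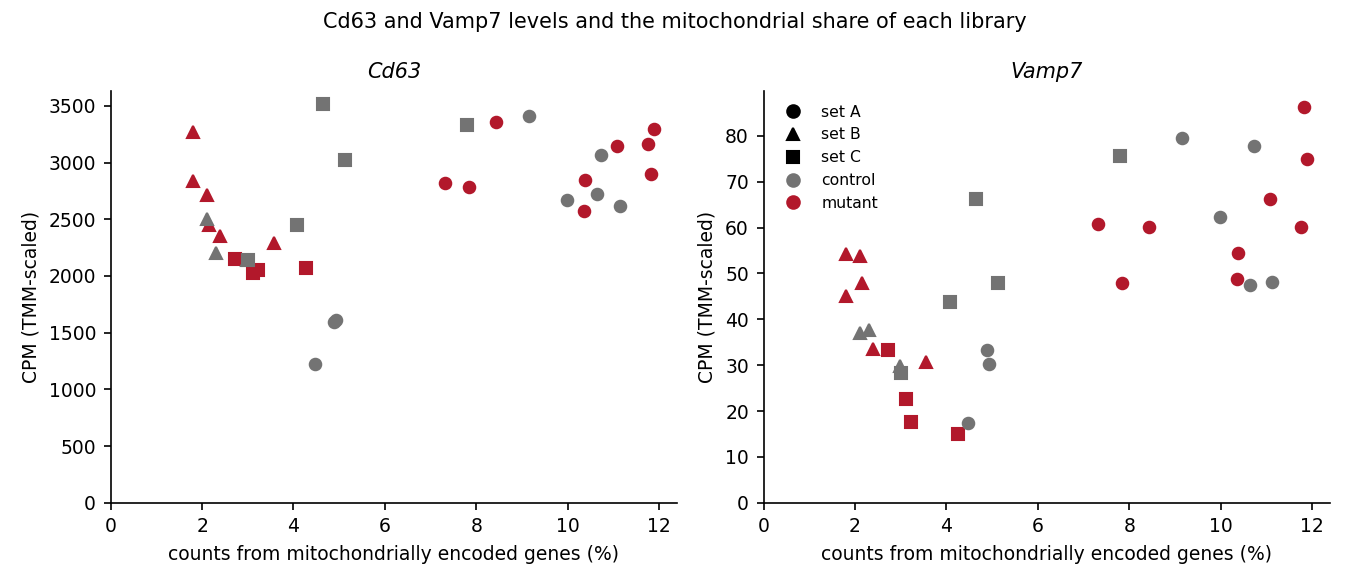
Levels of Cd63 and Vamp7 (vertical axes, CPM from 0) against the percentage of counts from mitochondrially encoded genes (horizontal axis) in the 35 libraries (circles set A, triangles set B, squares set C; grey controls, red mutants). The 3 controls of set A below 5% have 1220 to 1610 CPM of Cd63, under every other library of that set; the set B libraries, at 1.79 to 3.56%, have 2140 to 3270 CPM.

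The second comparison asks what remains when Tfeb is lost together with Flcn. By edgeR 0 of 49 genes were called, as were 0% of the 12469 genes tested, and DESeq2 also called 0 of them. At an unadjusted p under 0.05, 0 genes were higher (1.86% of all genes) and 2 lower (3.21%). The log2 fold change was above 0 for 16 of 24 membrane genes (median 0.087) and for 7 of 25 sorting genes (median -0.22), against 47.9% of all genes and a median of -0.017. Without control replicate 3, the library with the low mitochondrial share, the medians were 0.00929 and -0.0322, with 13 of 24 and 12 of 25 genes above 0. With the share as a covariate they were -0.0308 and 0.0416. The split between the classes was thus lost without 1 of the 3 controls. The median SE was 0.26 for membrane and 0.23 for sorting genes, wider than in the Flcn cross, where it was 0.18 and 0.14.

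The 4 genes described first in the Flcn cross overlapped with them in this one. Mcoln3 had 9.53, 4.44 and 3.87 CPM in the controls and 7.55, 7.43, 7.23 and 4.46 CPM in the Flcn/Tfeb DKO kidneys (log2 fold change 0.20, SE 0.43). Ap1m2 had 28, 36.1 and 39 CPM against 37, 22.9, 25.7 and 29.4 CPM (-0.26, SE 0.22), with 2 of the 4 mutants under every control. Gga2 had 107, 76.6 and 76.3 CPM against 92.9, 96.6, 102 and 92.6 CPM (0.16, SE 0.17), and Vamp8 154, 162 and 113 CPM against 155, 155, 167 and 159 CPM (0.16, SE 0.17).

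Vps18, a core HOPS subunit, was the sorting gene with the lowest value, at 8.97, 18.3 and 7.74 CPM in the controls and 6.04, 5.57, 6.87 and 5.95 CPM in the DKO kidneys. All 4 mutants lay below all controls (log2 fold change -0.89, SE 0.37, unadjusted p = 0.035, adjusted p = 0.8 in edgeR), and the same held for Vps39, with 18.5, 15 and 15.5 CPM against 14, 13, 11.9 and 12.6 CPM (-0.34, SE 0.23). The log2 fold change of Vps18 was -0.425 without control replicate 2, which had 18.3 CPM, and -1.14 without control replicate 3. Of all genes tested 2.94% had their mutants below every control and 2.71% above. Tmem192, a small lysosomal membrane protein, was the 1 member with its mutants above, with 17.4, 11.7 and 14.7 CPM against 17.7, 19.2, 19.9 and 19.3 CPM (0.39, SE 0.23). Ap1b1, the beta-1 subunit of AP-1, had 45.4, 52.7 and 126 CPM in the controls and 47.6, 47.1, 38.7 and 46.5 CPM in the mutants (-0.76, SE 0.31, unadjusted p = 0.034). The value of 126 CPM belongs to control replicate 3, and without it the log2 fold change was -0.128.

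By role, all 5 AP-1 subunits (median -0.26), all 3 AP-3 subunits (-0.22), 5 of 6 HOPS and Rab7 genes (-0.25) and 4 of 5 receptors and tag enzymes (-0.23) lay below 0, whereas the 3 SNARE genes lay above. These counts did not all hold without control replicate 3. The log2 fold change was then 0.12 for Ap1m1, 0.107 for Rab7, 0.0281 for Igf2r, 0.0823 for Sort1 and -0.182 for Vamp7. Ap1m2 (-0.143), Ap1b1 (-0.128) and Vps18 (-1.14) stayed below 0. Among the membrane genes Mfsd8 and Cln3, both mutated in neuronal ceroid lipofuscinosis, had the highest log2 fold changes, 0.80 (SE 0.40) and 0.54 (SE 0.25), and neither passed an unadjusted p of 0.05. Lamp1 had 835, 601 and 774 CPM in the controls and 680, 609, 602 and 599 CPM in the mutants (-0.24, SE 0.19), the lowest of its class. Lamp2 had 398, 308 and 306 CPM against 310, 285, 281 and 306 CPM. Mcoln1 had 16.8, 30 and 9.95 CPM against 24.5, 25.4, 22.8 and 25.3 CPM, mutants that lay close together inside the wide range of the controls (0.41, SE 0.33, and 0.0642 without control replicate 3). Npc1 had 14, 23.9 and 26.3 CPM against 22.7, 22.3, 23.1 and 23.8 CPM, likewise inside it.

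The remaining named genes overlapped as well. Igf2r had 53.8, 33.9 and 69.7 CPM in the controls and 44.2, 55.7, 48.5 and 32 CPM in the mutants, Rab7 123, 108 and 183 CPM against 124, 144, 111 and 120 CPM, and Ap1m1 33.1, 33.3 and 58.3 CPM against 33.6, 45.8, 34 and 32.4 CPM. The highest control of each was replicate 3. Cd68 had 1.68, 7.22 and 3.87 CPM against 2.64, 8.05, 7.23 and 5.21 CPM and Laptm5 10.1, 10.5 and 14.9 CPM against 11.3, 12.4, 13.7 and 12.6 CPM. The macrophage markers summed to 206 to 232 CPM in these controls and 171 to 284 CPM in the mutants. Tpcn2, tested in this cross only, differed by 0.23 (SE 0.38). Mcoln2 was at 0 to 3.72 CPM in the 35 libraries, near the floor of 3 counts, and was tested in no cross.

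The third comparison asks the same of Tfe3. With the set as a term, edgeR called 0 of 48 genes, where 0.345% of 12456 genes were called higher and 0.0401% lower (0.385% in all), and DESeq2 called 0. At an unadjusted p under 0.05, 2 genes were higher (3.68% of all genes) and 1 lower (3.48%). The log2 fold change was above 0 for 11 of 23 membrane genes (median -0.06) and 17 of 25 sorting genes (median 0.055), against 51.9% of all genes and a median of 0.009. Set B alone gave medians of 0.0594 and 0.021 and set C alone -0.0701 and 0.111, so the membrane median changed its sign between the sets. No gene differed by more than 0.5 on the log2 scale, at a median SE of 0.16 for membrane and 0.13 for sorting genes. No member had all 10 mutants above or below all 8 controls, as 0.12% of all genes did above and 0.00803% below.

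Ap1m2 and Gga2 were the 2 genes that were higher at an unadjusted p under 0.05 (4.17% of members tested, against 3.68% of all genes). Neither was called. Ap1m2 had 31.6, 32.3 and 40.2 CPM in the controls of set B and 45.3, 56.7, 45, 34.8, 39.1 and 54.3 CPM in its Flcn/Tfe3 DKO kidneys, and 15.8, 37.5, 20.3, 29.1 and 25.6 CPM against 25.2, 26.2, 31.7 and 42.2 CPM in set C. Controls and mutants overlapped in both sets, and the fitted difference was 1.28-fold (95% interval 1.04 to 1.59, log2 fold change 0.36, SE 0.15, unadjusted p = 0.024, adjusted p = 0.56 in edgeR). Gga2 had 85.4, 86.8 and 119 CPM against 90.1, 109, 88.4, 115, 110 and 112 CPM in set B and 54.4, 67, 79.5, 62 and 60.8 CPM against 74, 92.4, 97.1 and 75.4 CPM in set C (1.18-fold, 95% interval 1.02 to 1.38, unadjusted p = 0.029, adjusted p = 0.59 in edgeR). Mcoln3 was spread more widely in the mutants than in the controls, with 6.85, 9.12 and 6.79 CPM against 9.99, 3.36, 5.42, 6.57, 9.83 and 15.4 CPM in set B and 6.14, 10.1, 7.62, 8.14 and 6.71 CPM against 10.7, 9.93, 7.23 and 13.6 CPM in set C (0.30, SE 0.23).

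Vamp8 and Lamp2 differed in direction between the sets. Vamp8 had 157, 133 and 186 CPM against 152, 188, 151, 162, 170 and 193 CPM in set B and 137, 126, 125, 119 and 146 CPM against 108, 103, 121 and 97.1 CPM in set C, where 3 of the 4 mutants lay below every control (log2 fold change -0.10, SE 0.098, in both sets together). Lamp2 lay below every control in all 4 mutants of set C, with 337, 289, 260, 277 and 325 CPM against 232, 235, 237 and 250 CPM (-0.357, adjusted p = 0.13 in edgeR within set C), where 2.28% of all genes had this and 3.74% the opposite. In set B it was 286, 325 and 301 CPM against 316, 316, 387, 327, 359 and 391 CPM, a log2 fold change of 0.205. Lamp2 was the 1 member without overlap in a set: in set B none of the members was, where 1.72% of all genes had their mutants above every control and 1.28% below.

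Vamp7 and Cd63 likewise differed in opposite directions in the 2 sets. Vamp7 had 47.8, 75.6, 28.3, 43.8 and 66.3 CPM in the controls of set C and 17.7, 22.6, 33.3 and 15.1 CPM in its mutants, and with a log2 fold change of -1.26 (adjusted p = 0.013 in edgeR) it was the 1 member called within a single set. In set B it had 29.9, 37 and 37.7 CPM against 33.6, 47.9, 53.9, 30.6, 45 and 54.3 CPM (0.346). Over all genes tested, 569 were called in set C alone and 8 in set B alone. Cd63 had 3020, 3330, 2140, 2450 and 3520 CPM against 2050, 2030, 2150 and 2070 CPM in set C (-0.519) and 2140, 2500 and 2200 CPM against 2350, 2450, 2710, 2290, 2840 and 3270 CPM in set B (0.222). The mitochondrial share was 2.72 to 4.27% in the mutants of set C and 3.01 to 7.8% in its controls. Red blood cell markers summed to 1470 to 1960 CPM in those mutants against 2150 to 6330 CPM in the controls. Reads without a unique position made up 33.7 to 36.1% in those mutants and 42.1, 42.5, 35, 40 and 41% in the controls. Control replicate 6, at 35% and with the lowest mitochondrial share of these controls, also had their lowest Vamp7, Cd63 and Lamp2. The part of these shares and markers in the values was not tested beyond fits of both sets together with the mitochondrial share as a covariate.

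Mcoln1 was the 1 gene that was lower at an unadjusted p under 0.05. It had 17.6, 9.86 and 14.9 CPM in the controls of set B and 14.1, 7.32, 7.7, 13.1, 8.8 and 13.3 CPM in the mutants, and 17.5, 15.1, 9.8, 9.3 and 15 CPM against 8.99, 12.4, 7.23 and 9.65 CPM in set C (0.745-fold, 95% interval 0.567 to 0.979, log2 fold change -0.42, SE 0.19, unadjusted p = 0.036, adjusted p = 0.63 in edgeR). The groups overlapped in both sets. Lamp1 was level across the cross, with 620, 689 and 725 CPM against 669, 712, 727, 669, 732 and 711 CPM in set B and 651, 623, 541, 548 and 558 CPM against 567, 552, 550 and 617 CPM in set C. Its log2 fold change of 0.0089 had a 95% interval in fold of 0.895 to 1.13. Npc1 had 19.6, 14 and 20.6 CPM against 21.9, 22.6, 16.5, 18.6, 17.1 and 16.2 CPM in set B and 18, 16.6, 17.4, 10.5 and 17 CPM against 29, 13.8, 20.7 and 13.6 CPM in set C (0.17, SE 0.16).

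The other adaptors and receptors did not pass an unadjusted p of 0.05 in the Flcn/Tfe3 cross. All 5 AP-1 subunits lay above 0 (median 0.13), among them Ap1b1 at 0.27 (SE 0.19), as did 5 of 6 HOPS and Rab7 genes (median 0.089). Igf2r had 52.6, 53 and 39.4 CPM against 56, 43, 53, 67.6, 60.5 and 43.4 CPM in set B and 77.7, 54.7, 80.2, 68.6 and 73 CPM against 83, 86.1, 71.4 and 99.8 CPM in set C (0.21, SE 0.11). Rab7 had 138, 122 and 167 CPM against 131, 164, 140, 141, 135 and 153 CPM and 107, 105, 146, 120 and 126 CPM against 105, 141, 164 and 122 CPM. Ap1m1 had 68.5, 63.6 and 54 CPM against 55.5, 60.1, 69.6, 53.2, 63.4 and 67.8 CPM and 44.7, 35.3, 60.3, 55.8 and 48.1 CPM against 51.9, 42.5, 55 and 51 CPM. Neither Rab7 (0.077) nor Ap1m1 (0.0057) differed by as much as 1 SE. Cd68 had 1.9 to 8.13 CPM in the controls of set B against 4.27 to 8.55 CPM and 0 to 7.1 CPM in those of set C against 2.76 to 5.66 CPM, and Laptm5 20.1 to 26.2 CPM against 11.8 to 26.9 CPM and 10.9 to 15.1 CPM against 11.3 to 22.6 CPM. Macrophage markers summed to 283 to 307 CPM in the controls and 309 to 387 CPM in the mutants of set B, and to 164 to 201 CPM and 161 to 217 CPM in set C.

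Whether a double knockout differed from the single knockout was tested as the difference between the effects, each effect being relative to its own controls. These tests share libraries and are not independent of each other. By edgeR 0 of 49 genes were called in each of the 3 tests, where 0.0153% of 13049 genes were called in the Flcn/Tfeb DKO effect minus the Flcn KO effect, 0% of 13728 in the Flcn/Tfe3 DKO effect minus the Flcn KO effect and 0.0291% in the Flcn/Tfe3 DKO effect minus the Flcn/Tfeb DKO effect, and DESeq2 also called 0 genes of the list in each. At an unadjusted p under 0.05, 4 genes had a lower effect and 0 a higher effect in the Flcn/Tfeb DKO than in the Flcn KO (3.71% and 2.24% of all genes). The difference was below 0 for 37 of 49 genes (median -0.16; 46.7% of all genes lay above 0). The 4 genes were Ap1m2 (-0.93, SE 0.25, unadjusted p = 0.0015, adjusted p = 0.62 in edgeR), Vps18 (-1.03, SE 0.44), Lamp1 (-0.48, SE 0.20) and Laptm4b (-0.45, SE 0.17). The Flcn/Tfeb effect of Vps18 was -0.425 without control replicate 2 of that cross. The Flcn KO effect of Lamp1 was 0.118 without control replicates 4 and 5. For Mcoln3 the difference was -0.76 (SE 0.42) and for Gga2 -0.33 (SE 0.18).

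Against the Flcn KO effect, the Flcn/Tfe3 DKO effect was lower for 5 genes and higher for 0 at an unadjusted p under 0.05 (3.78% and 2.4% of all genes). These were Vamp8 (-0.55, SE 0.15, unadjusted p = 0.0011, adjusted p = 0.76 in edgeR), Mcoln1 (-0.88, SE 0.34), Vamp7 (-0.85, SE 0.41), Cd63 (-0.56, SE 0.26) and Npc2 (-0.36, SE 0.15). Without control replicates 4 and 5 the Flcn KO effect was 0.159 for Mcoln1, 0.101 for Vamp7, 0.139 for Cd63 and 0.427 for Vamp8. The Flcn/Tfe3 effects of Vamp7, Cd63 and Vamp8 had opposite signs in sets B and C. For Ap1m2 the difference was -0.32, with an unadjusted p of 0.17, and its 95% interval in fold ran from 0.58 to 1.1. It was -0.69 for Mcoln3 (SE 0.35), and 15 of 49 genes lay above 0 (median -0.18; 50% of all genes). Between the double knockouts, the Flcn/Tfe3 effect was the higher for 20 of 25 sorting genes (median 0.21) and 12 of 24 membrane genes (median -0.0072), beside 49.6% of all genes. All 5 AP-1 subunits (median 0.52), 3 AP-3 subunits (0.28) and 6 HOPS and Rab7 genes (0.32) were on that side and all 3 SNARE genes (-0.28) on the other. The sorting median of the Flcn/Tfeb effect was -0.22, and -0.0322 without control replicate 3 of that cross. The Flcn/Tfeb effects of Ap1m1, Igf2r, Rab7, Sort1 and Vamp7 changed sign without it. These medians of the difference are given with that library only. Between the double knockouts at an unadjusted p under 0.05, Ap1b1 (1.01), Ap1m2 (0.59) and Ap1s1 (0.52) were higher and Mfsd8 (-1.20), Mcoln1 (-0.86) and Cln3 (-0.78) lower, against 8.24% and 5.7% of all genes. The Flcn/Tfeb effect of Ap1b1 was -0.757, and -0.128 without control replicate 3 of that cross. That of Mcoln1 was 0.411, and 0.0642 without it.

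**Figure D5:**
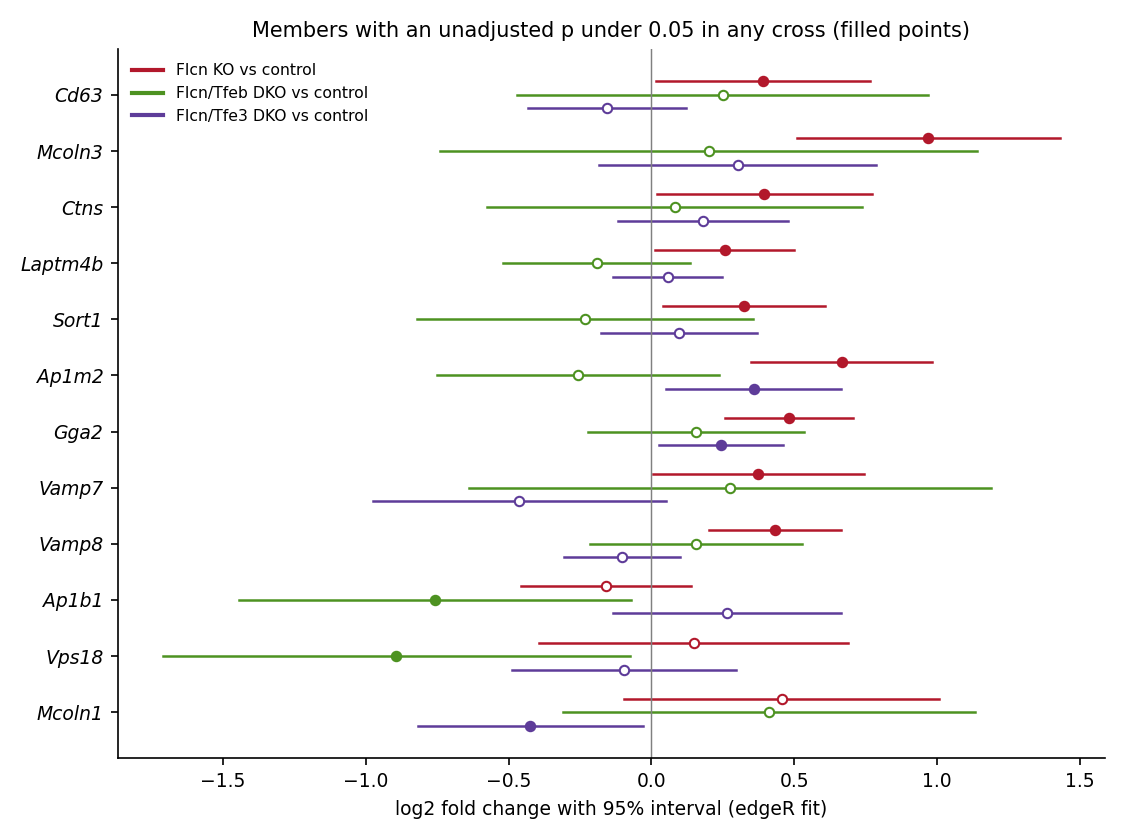
Log2 fold change with its 95% interval from the edgeR fit (horizontal axis) for the 12 genes with an unadjusted p under 0.05 in at least 1 cross, in the Flcn KO (red), the Flcn/Tfeb DKO (green) and the Flcn/Tfe3 DKO (purple), each against its own controls; filled points have an unadjusted p under 0.05. The Ap1m2 points stand at 0.67, -0.26 and 0.36, and the intervals of the Flcn/Tfeb DKO are the widest for most genes.

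Further genes of the same pathways were taken from lists compiled by hand. Of 41 other lysosomal membrane genes tested in each cross, edgeR called 0. Their median log2 fold change was 0.0015 in the Flcn cross, with 21 of 41 above 0, -0.052 with Tfeb also lost and 0.015 with Tfe3 also lost. In the Flcn cross the values at an unadjusted p under 0.05 were those of P2rx4 (0.53), an ATP-gated channel, Hgsnat (0.42), an acetyltransferase of heparan sulfate breakdown, Tmem55b (0.40) and Tmem150c (-0.48). They made up 7.32% of the list higher and 2.44% lower, against 5.25% and 3.81% of all genes. Of the other sorting and fusion genes, 41 of 63 lay above 0 in the Flcn cross (median 0.083), and 1 was called, Snapin, a subunit of BLOC-1 and BORC that binds SNAREs (0.71, SE 0.15, adjusted p = 0.034 in edgeR). Of all genes tested in that cross 0.52% were called. At an unadjusted p under 0.05, 6 of the list were higher (9.52%, against 5.25% of all genes) and 0 lower (3.81%). Beside Snapin these were Rab5a (0.77), Ap5z1 (0.44), Bloc1s1 (0.42), Vamp4 (0.39) and Sorl1 (0.27). In the Flcn/Tfeb and Flcn/Tfe3 crosses 0 of 64 and 0 of 68 were called, with medians of -0.071 and 0.0043.

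Cell composition was followed with marker lists. The 17 markers of the segments in which Ksp-cre acts summed to 2160 to 2420 CPM in the controls of the Flcn cross and 2210 to 2570 CPM in the Flcn KO kidneys, ranges that overlap. Single markers moved apart within that sum. Umod was called higher in the Flcn cross (log2 fold change 1, adjusted p = 4e-04 in edgeR). It was also called higher in the Flcn/Tfe3 cross (0.71, adjusted p = 0.00022 in edgeR). At an unadjusted p under 0.05 in the Flcn cross, Foxi1 (0.83), Scnn1g (0.71) and Slc4a1 (0.68) were higher too. Calb1 (-0.675) and Aqp2 (-0.477) were lower. All 10 proximal tubule markers lay below 0 in the Flcn cross (median -0.22), at 3320 to 4030 CPM in the controls and 2480 to 3320 CPM in the mutants, and in the Flcn/Tfeb cross (median -0.18). In the Flcn cross all 6 podocyte markers (median -0.105) and 5 of 6 stroma markers (-0.253) also lay below 0. The 5 red blood cell markers tested (0.373) and 5 of 6 endothelium markers (0.0645) lay above 0. In the Flcn/Tfeb cross 5 of 6 podocyte (median -0.381), 5 of 6 stroma (-0.0644) and 5 of 6 endothelium markers (-0.182) lay below 0. The 5 red blood cell markers tested there (0.182) lay above. In the Flcn/Tfe3 cross the 5 red blood cell markers tested (median -0.644) and 8 of 10 proximal tubule markers (-0.11) lay below 0. There 4 of 6 podocyte, 4 of 6 stroma and 5 of 6 endothelium markers lay above. No marker of these lists, of macrophages or of podocytes, endothelium, stroma and red blood cells was at 0 in any group. The part of cell composition in the values above was not tested.

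The genes were last divided by their promoter windows. In the Flcn cross the 9 genes with TCACGTG had a median log2 fold change of 0.22, with 6 above 0, and the 30 tested genes without it 0.11, with 23 above 0. In the Flcn/Tfeb cross the medians were -0.15 and 0.0094, and in the Flcn/Tfe3 cross 0.0089 and 0.011. The fold changes of the genes with the match ran from -0.18 (Igf2r) to 0.48 (Gga2) in the Flcn cross and those of the genes without it from -0.16 (Ap1b1) to 0.97 (Mcoln3), ranges that overlap.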

How the data were processed

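Total RNA of 35 kidneys was made into 3′ end (QuantSeq) libraries and sequenced from 1 end. The deposited values are raw counts of reads per gene: per the study's methods the authors trimmed the reads, aligned them with STAR to mm10 and counted them with HTSeq-count, and the submitters' processing notes name Trim Galore as well. A deposited column with the percent of multi-mapped reads per gene was not used. Tally rows that name no gene were left out; in the 26 libraries that list them, reads without a unique position made up 33.7 to 49.4% of the tallied reads. Counts from genes that share sequence may thus be too low.

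Counts of each cross were filtered (filterByExpr), scaled by TMM and tested two-sided with edgeR 4.0.16 (quasi-likelihood F test, limma 3.58.1, R 4.3.3), with the set as a term in the Flcn/Tfe3 cross, and called at an adjusted p (Benjamini-Hochberg) under 0.05. Intervals use the t quantile of the fit. The fits were tested on simulated data. Alternatives were DESeq2 1.42.0, RLE scaling, other filters (none, or a mean of 10 counts) and thresholds (adjusted p under 0.1), a replicate block, all libraries of set A together, Xist, each set alone or no term for the set, and each library left out, and, added after seeing the data, the mitochondrial share as a covariate and the low-share controls left out together. Members and lists were chosen with earlier results of these data known. Values per library are given for 13 fixed names (Lamp1, Lamp2, Npc1, Mcoln1, Mcoln3, Cd68, Laptm5, Ap1m1, Ap1m2, Gga2, Vamp8, Igf2r and Rab7), for members called and for members whose mutants all lay on 1 side of the controls. They are also given for Cd63, Ctns, Laptm4b, Sort1 and Ap1b1, chosen for an unadjusted p under 0.05 after their values were seen. Gene positions are those of GENCODE on mm10. Replicate libraries differed by more than counting noise and were all kept.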

Additional observations from a re-analysis of the deposited data

Results flagged for a closer look

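Among 132 groups of 4 or more libraries, checked by gene or by class median, 7 held a library far from the rest. This is near the share of about 1 in 20 that chance gives. Of these, 4 were Flcn/Tfeb DKO libraries: replicate 3 had 38.7 CPM of Ap1b1 (the nearest other had 46.5), replicate 2 had 45.8 CPM of Ap1m1 (34), replicate 1 had 680 CPM of Lamp1 (609) and replicate 4 had 4.46 CPM of Mcoln3 (7.23), so that each of the 4 libraries stood apart for a different gene. In the controls of set C, replicate 7 had 10.5 CPM of Npc1 (16.6) and replicate 8 had 30 CPM of Sort1 (48.1). Control replicate 5 of the Flcn cross had 180 CPM of Rab7 (148), and it is a library with a low mitochondrial share.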

How the results depend on the processing

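In the Flcn cross edgeR called 62 genes, and 100 at an adjusted p under 0.1, 113 by DESeq2, 95 with no filter and 147 with the mitochondrial share as a covariate; the members called were 3, 4, 1 and 4 under these settings. The sorting median was 0.0883 with that covariate, and without controls 4 and 5 the medians were 0.00699 (membrane) and 0.101 (sorting). Leaving out 1 library at a time gave 37 to 58 genes called (fewest without Flcn KO replicates 2, 3 or 4), 0 to 1 members called (Mcoln3 without control 4, Gga2 without control 5, Ap1m2 without Flcn KO replicate 2) and medians of 0.0988 to 0.256 and -0.025 to 0.109. In the Flcn/Tfeb cross 1 gene was called with all libraries of set A together and 0 to 1 without 1 library, and the medians were -0.0308 and 0.0416 with the mitochondrial covariate and 0.00929 to 0.106 and -0.243 to -0.0322 without 1 library. In the Flcn/Tfe3 cross 48 genes were called, and 96 by DESeq2, 26 with Xist and 28 with the mitochondrial share as a covariate, 8 in set B alone, 569 in set C alone (1 member), 29 with no term for the set and 30 (without Flcn/Tfe3 DKO replicate 7) to 53 without 1 library; the membrane median was 0.018 with the mitochondrial covariate, 0.0594 in set B and 0.025 with no term for the set, and the medians ran from -0.0808 to -0.00664 and 0.0273 to 0.119 without 1 library. For the Flcn/Tfeb DKO effect minus the Flcn KO effect 2 genes were called, and 8 by DESeq2, 5 with the mitochondrial covariate and 0 (without Flcn/Tfeb DKO replicate 4) to 3 without 1 library. For the Flcn/Tfe3 DKO effect minus the Flcn/Tfeb DKO effect 4 were called, and 14 by DESeq2 and 2 to 199 without 1 library, 199 being without control replicate 2 and 2 without control replicate 3 of the Flcn/Tfeb cross.

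The following log2 fold changes took the opposite sign. Without controls 4 and 5 of the Flcn cross, Ap1b1 was 0.0956 and Lamp2 -0.0235. In the Flcn/Tfeb cross with the mitochondrial covariate, Ap1b1 was 0.129, Ap1m1 0.264, Cd63 -0.393, Cd68 -0.0619, Ctns -0.207, Igf2r 0.248, Mcoln1 -0.23, Mcoln3 -0.0773, Rab7 0.27, Sort1 0.381, Vamp7 -0.714 and Vamp8 -0.104. In the Flcn/Tfe3 cross, set B alone gave Ap1b1 -0.137, Ap1m1 -0.00791, Cd63 0.222, Ctns -0.0207, Lamp2 0.205, Sort1 -0.105, Vamp7 0.346, Vamp8 0.0985 and Vps18 0.128, and set C alone Ap1m1 -0.0149, Lamp1 -0.0701 and Laptm5 0.321. No term for the set gave Lamp2 0.0249 and Vamp8 0.0334, DESeq2 Ap1m1 -0.0162 and Lamp1 -0.00788, RLE scaling Ap1m1 -0.0108 and Lamp1 -0.00934, the mitochondrial covariate Ap1m1 -0.1, Laptm5 0.018 and Rab7 -0.0016, and Xist Npc1 -0.0179. Without 1 library at a time, values ran in the Flcn cross from -0.112 to 0.155 for Ap1m1 and -0.0432 to 0.236 for Laptm5, in the Flcn/Tfe3 cross from -0.0363 to 0.0411 for Ap1m1, -0.0251 to 0.0269 for Lamp1 and -0.192 to 0.0373 for Laptm5, and in the Flcn/Tfeb cross from -0.357 to 0.12 for Ap1m1, -0.0844 to 0.507 for Cd63, -0.131 to 0.307 for Ctns, -0.461 to 0.0281 for Igf2r, -0.045 to 0.281 for Laptm5, -0.0726 to 0.684 for Mcoln3, -0.128 to 0.28 for Npc1, -0.295 to 0.107 for Rab7, -0.418 to 0.0823 for Sort1 and -0.182 to 0.585 for Vamp7. The cause was not tested.

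Groups share replicate numbers, but libraries of the same number did not deviate together (in the Flcn cross r = 0.122, -0.196, -0.02, -0.23 and 0.31), so the numbers do not pair the samples. With the replicate block 48 genes were called in the Flcn cross and 0 in the Flcn/Tfeb cross, the Flcn/Tfe3 cross and the differences between crosses, and in the Flcn/Tfe3 cross Ap1m1 was -0.0599, Cd68 -0.142, Mcoln3 -0.00676 and Vps18 0.0723. Depth limits genes under about 10 CPM, such as Cd68, Vps18 and Mcoln3. Mcoln3 was that low in the controls of the Flcn cross, in every Flcn/Tfeb library and in most Flcn/Tfe3 libraries. Mcoln1 was that low in some libraries.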
